A study of Mus musculus with 6 samples.

Results

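The 10 genes described here encode antiviral and related proteins that type I interferon induces in many cell types: *Mx1*, *Mx2*, *Rsad2* (viperin), *Cmpk2*, *Bst2* (tetherin), *Ifi27*, *Ifi35*, *Ifi44*, *Isg20* and *Xaf1*. They were picked out by gene symbol, with earlier results of these data known, and all 10 were found among the 54331 genes listed. mRNA was sequenced from mouse embryonic fibroblasts (MEFs) on the way to induced pluripotent stem cells (iPSCs), in 6 bulk libraries of 2 groups with 3 wells each. The MEFs came from several male embryos at embryonic day 13.5, pooled before culture, which carried an *Oct4*-EGFP transgene on a mixed background of C57BL/6, DBA/2 and ICR. Cells of both groups had received the same retroviruses for Oct4, Sox2 and Klf4 (OSK) and for AKT-MER (A), a myristoylated AKT fused to a modified estrogen receptor that is active only when 4-hydroxytamoxifen (4OHT) is bound. From 3 days post infection (dpi) the OSKA + 4OHT group had 1 µM 4OHT and the OSKA − 4OHT group its vehicle, ethanol, and both were collected at 10 dpi. As 4OHT was given only to cells with AKT-MER, an action of 4OHT itself and that of active AKT cannot be told apart in these libraries. The wells of both groups were plated from transduced cells, so the p-values measure the spread between wells and not between embryos or independent infections.

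Interferons are secreted proteins that bind receptors on the cell surface. The receptors activate the JAK kinases, and these phosphorylate STAT proteins, which join IRF9 in a complex that binds the interferon-stimulated response element (ISRE) in the promoters of target genes. The products of these genes act against viruses at different steps. Mx proteins are dynamin-like GTPases that trap viral components, viperin makes a nucleotide that ends viral RNA chains, and tetherin holds budding virus particles at the cell surface. Sensors of viral RNA and DNA in the cell lead to the production of interferon, and both the sensors and the STAT proteins are targets of the pathway too. Pluripotent cells are known for a weak interferon response, whereas fibroblasts respond strongly.

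Values are transcripts per 1000000 (TPM), a level corrected for transcript length scaled to the same total in each library, so the levels of different genes can be set side by side. The wells differed in depth. Read from the size of the smallest TPM steps, the deepest library was the second of the OSKA − 4OHT wells and the shallowest the first, with a relative depth of 0.50. For a transcript of 3000 bases, 1 read was worth about 0.221 to 0.443 TPM. In the OSKA + 4OHT libraries the relative depth was 0.769 to 0.94. Fibroblast markers were abundant in both groups, with 10 markers that added up to 6510 to 8390 TPM without 4OHT and 5030 to 6420 TPM with it. Of these 10 markers, 2 were called higher (*Col3a1* and *Lum*) and 0 lower, against 2.87% and 1.37% of all tested genes. At an unadjusted p under 0.05 in limma 4 were higher and 3 lower (14.1% and 7.18% of all tested genes). The 3 lower were *Col1a1*, *Col1a2* and *Vim*, with log2 fold changes of −0.66, −0.88 and −0.53. *Col1a2* had an adjusted p of 0.0285 in limma and missed a call only on the fold threshold. In the fit of all genes (limma-trend on log2(TPM + 0.5)), 441 of 15382 tested genes were called higher in OSKA + 4OHT and 210 lower, calls that needed a Benjamini-Hochberg adjusted p below 0.05 and a log2 fold change beyond 1 in either direction.

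Most of the interferon effector genes were at a higher level with 4OHT. Of the 10 genes, 7 rose, among them both Mx genes, *Rsad2*, *Bst2*, *Ifi35*, *Ifi44* and *Xaf1*, and 0 fell. Over all tested genes, 2.87% were called higher and 1.37% lower by the same rule. *Cmpk2*, *Ifi27* and *Isg20* did not pass it. With a block for the replicate number, 1 of the 10 genes was called, *Xaf1*. In 9 of the 10 genes every OSKA + 4OHT well lay above every OSKA − 4OHT well, a pattern that 18.1% of all tested genes had. The exception was *Isg20*. At an unadjusted p-value under 0.05 in limma, 9 genes were higher and 0 lower, against 14.1% and 7.18% of all tested genes. The median log2 fold change of the 10 genes was 2.11, and that of all tested genes was 0.14. The cells were measured in bulk, so more cells that express a gene and more RNA per cell cannot be told apart.

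**Figure D1:**
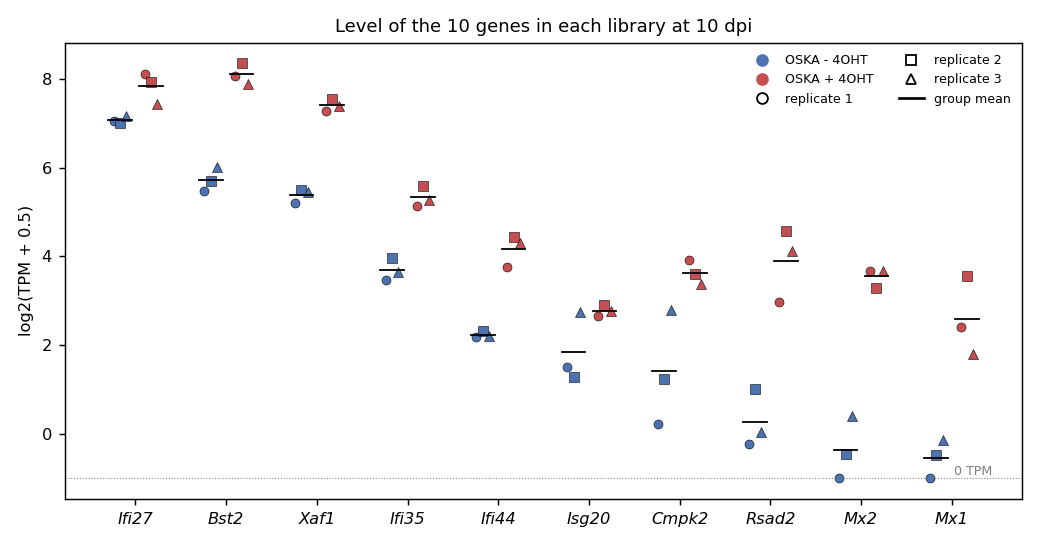
Level of each of the 10 genes in each of the 6 libraries, as log2(TPM + 0.5), in the order of their mean without 4OHT. Blue symbols are OSKA − 4OHT wells, red symbols OSKA + 4OHT wells, the shape gives the replicate and the line the mean of 3 wells on this scale; the dotted line marks 0 TPM. The red symbols lie above the blue ones for each gene but *Isg20*, in which the third OSKA − 4OHT well reaches 6.15 TPM.

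The Mx genes were close to absent without 4OHT. *Mx1* was listed at 0, 0.22 and 0.40 TPM in the OSKA − 4OHT wells, which is about 1 read or none in each, and at 4.80, 11.3 and 3.0 TPM in the OSKA + 4OHT wells. *Mx2* was listed at 0, 0.22 and 0.82 TPM without 4OHT and at 12.2, 9.28 and 12.3 TPM with it. For both genes the groups were far apart, although the treated wells differed more among themselves for *Mx1* than for *Mx2*. In limma the log2 fold change was 3.90 for *Mx2* (SE 0.455, adjusted p = 0.00925) and 3.13 for *Mx1* (SE 0.601, adjusted p = 0.0387). Because the untreated level is under about 2 reads in each well, the size of these folds rests on the pseudocount: over the alternative settings it ran from 1.80 to 4.47 for *Mx1* and from 2.51 to 5.19 for *Mx2*. The *Mx1* call was lost whichever of the 6 wells was left out, with an adjusted p of 0.066 to 0.155. It was also lost with a pseudocount of 2 (adjusted p = 0.0603) and with no filter on low values (adjusted p = 0.0579). That of *Mx2* was lost without the first or the second OSKA + 4OHT well (adjusted p = 0.063 and 0.0529).

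*Mx1* and *Mx2* lie on chromosome 16 of GRCm38, *Mx1* at 97447035 to 97462907 on the minus strand and *Mx2* at 97535308 to 97560900 on the plus strand, with 72401 bases between their start sites. Many laboratory mouse strains carry defective Mx alleles. In the C57BL/6J assembly RefSeq classes both as transcribed pseudogenes, whereas GENCODE gives *Mx1* as protein coding and *Mx2* as a polymorphic pseudogene. Which Mx alleles the pooled embryos carried was not tested. Of the 50-base stretches of the longest *Mx1* transcript, 4.77% also occur in transcripts of other genes, and of those of *Mx2*, 6.55%, all in *Mx1*. Reads from these stretches could have been divided between the 2 genes by the quantification.

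*Rsad2* and *Cmpk2* are neighbours on chromosome 12, transcribed away from each other from start sites 12752 bases apart. *Rsad2* encodes viperin, which converts CTP to the chain terminator, and *Cmpk2* encodes a mitochondrial nucleotide kinase that can supply the CTP. *Rsad2* was at 0.35, 1.52 and 0.54 TPM without 4OHT and at 7.32, 23.2 and 16.9 TPM with it, so that the lowest treated well was still above the highest untreated one. Its log2 fold change was 3.61 (SE 0.541, adjusted p = 0.0184 in limma). The size of this fold also rests on the pseudocount: it was 4.213 with a pseudocount of 0.1 and 2.575 with a pseudocount of 2. *Cmpk2* was at 0.66, 1.85 and 6.41 TPM without 4OHT and at 14.6, 11.6 and 9.89 TPM with it. The groups did not overlap, but the third OSKA − 4OHT well stood well above the other two. The log2 fold change of *Cmpk2* was 2.22 (SE 0.641, 95% interval 0.67 to 3.76) and its adjusted p was 0.111 in limma. Without the third OSKA − 4OHT well it was 2.91, with an adjusted p of 0.0367. The *Rsad2* call was lost when the first or the third OSKA − 4OHT well, or the second or the third OSKA + 4OHT well, was dropped (adjusted p = 0.0572, 0.0568, 0.084 and 0.0743).

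Within a library, the ratio of *Rsad2* to *Cmpk2* was 0.525, 0.819 and 0.0836 without 4OHT and 0.502, 1.99 and 1.71 with it. These ranges overlap (exact permutation test, two-sided p = 0.30, adjusted p = 0.30 over 4 ratios). The 4 ratios tested here and below were chosen after the values had been seen, and with 3 wells against 3 such a test cannot give a p below 0.10, so none of the ratios could pass a threshold of 0.05.

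*Bst2* encodes tetherin, a membrane protein with an anchor at each end. By mean TPM it was the second most abundant of the 10 genes without 4OHT, at 43.5, 51.6 and 63.6 TPM. With 4OHT it had the highest mean, at 267, 325 and 235 TPM, although *Ifi27* was above it in the first well (275 TPM). The groups were far apart. Its log2 fold change was 2.37 (SE 0.195, adjusted p = 0.00369 in limma), a ratio of mean TPM of 5.21. The call held whichever well was left out (adjusted p of 0.0135 to 0.0276). It was lost with a block for the replicate number (adjusted p = 0.0555). *Bst2* lies on chromosome 8 at 71534255 to 71537456 on the minus strand, and no 50-base stretch of its transcripts occurs in another gene.

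*Xaf1* encodes a zinc finger protein that binds XIAP, an inhibitor of caspases, and counters it. It was at 36.5, 44.9 and 43.5 TPM without 4OHT and at 155, 185 and 167 TPM with it, with no overlap. Its log2 fold change was 2.01 with the smallest standard error of the 10 genes (SE 0.146, adjusted p = 0.00347 in limma), a ratio of mean TPM of 4.06. *Xaf1* was called under each of the 16 alternative settings run. It lies on chromosome 11 at 72301629 to 72313733, and 2.94% of the 50-base stretches of its longest transcript also occur in transcripts of other genes. Over all its transcripts 1.61% of the distinct stretches were shared, with 84 other genes. Its partner *Xiap* was at 41.1, 35.3 and 48.6 TPM without 4OHT and at 38.1, 33.9 and 31.1 TPM with it, groups that overlap. The ratio of *Xaf1* to *Xiap* was 0.887, 1.27 and 0.895 without 4OHT and 4.07, 5.45 and 5.36 with it, with no overlap (exact permutation p = 0.10, the smallest possible, and 0.20 adjusted over the 4 ratios).

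*Ifi35* encodes a leucine zipper protein that forms complexes with NMI. Its level was 10.6, 15.0 and 11.9 TPM without 4OHT and 34.8, 47.6 and 38.2 TPM with it. All treated wells were above the highest untreated well, and the log2 fold change was 1.65 (SE 0.211, adjusted p = 0.0118 in limma). The call was lost without the first or the second OSKA + 4OHT well (adjusted p = 0.0536 and 0.0578). *Nmi* itself was at 16.4, 9.47 and 10.7 TPM without 4OHT and at 24.6, 28.4 and 20.4 TPM with it, with a log2 fold change of 1.0 and an adjusted p of 0.0843, and was not called. The ratio of *Ifi35* to *Nmi* was 0.645, 1.58 and 1.11 without 4OHT and 1.41, 1.67 and 1.87 with it, so the groups overlapped (exact permutation p = 0.20, adjusted p = 0.267).

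*Ifi44*, which encodes a cytoplasmic protein with a GTP-binding motif, was at 4.02, 4.44 and 4.13 TPM without 4OHT and at 13.0, 21.1 and 19.3 TPM with it. The untreated wells were nearly alike and the treated ones were all above them. The log2 fold change was 1.93 (SE 0.247, adjusted p = 0.0118 in limma), and the call was lost without the second OSKA + 4OHT well (adjusted p = 0.0596). *Ifi44l*, its relative and neighbour on chromosome 3, was listed at 0 in all but 1 library, in which it was at 0.69 TPM, and was too low to test.

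*Ifi27* encodes a small hydrophobic protein of intracellular membranes. It was the most abundant of the 10 genes without 4OHT, at 131, 128 and 142 TPM, and it was at 275, 244 and 173 TPM with it. The groups did not overlap, and the third OSKA + 4OHT well was the nearest to the untreated ones. The log2 fold change of 0.76 (SE 0.190, 95% interval 0.30 to 1.22, adjusted p = 0.0755 in limma) passed neither threshold. Within a library the ratio of *Bst2* to *Ifi27* was 0.331, 0.402 and 0.447 without 4OHT and 0.969, 1.33 and 1.36 with it, again with no overlap (exact permutation p = 0.10, the smallest possible, adjusted p = 0.20).

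*Isg20* encodes an exonuclease that degrades single-stranded RNA. It was at 2.34, 1.91 and 6.15 TPM without 4OHT and at 5.76, 7.01 and 6.36 TPM with it. The third OSKA − 4OHT well lay within the treated range, and the log2 fold change of 0.94 had a 95% interval of −0.10 to 1.98 (adjusted p = 0.277 in limma). The gene rested on about 1.61 to 9.07 reads per library. Without the third OSKA − 4OHT well the log2 fold change was 1.39 (adjusted p = 0.0836), again not called. The same well was the highest of its group for 6 of the 10 genes, *Mx1*, *Mx2*, *Cmpk2*, *Bst2*, *Ifi27* and *Isg20*.

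**Figure D2:**
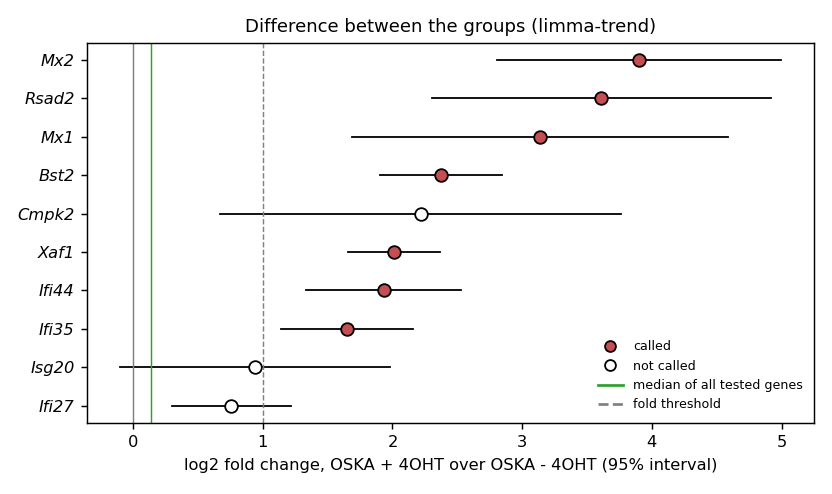
Log2 fold change of each gene, OSKA + 4OHT over OSKA − 4OHT, with its 95% interval from limma over 3 wells against 3. Filled circles were called; the dashed line is the fold threshold of 1, and the green line the median of all tested genes, 0.14. *Mx2*, *Rsad2* and *Mx1* have the largest estimates and wide intervals, *Xaf1* and *Bst2* the narrowest among the genes called.

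The levels of the 10 genes spanned a wide range. Without 4OHT the order by mean TPM was *Ifi27*, *Bst2*, *Xaf1*, *Ifi35*, *Ifi44*, *Isg20*, *Cmpk2*, *Rsad2*, *Mx2* and *Mx1*. In that order *Bst2* and *Xaf1* overlapped in their wells, as did each pair of neighbours from *Ifi44* down. With 4OHT the order was *Bst2*, *Ifi27*, *Xaf1*, *Ifi35*, *Ifi44*, *Rsad2*, *Cmpk2*, *Mx2*, *Isg20* and *Mx1*. There *Ifi27* overlapped both *Bst2* and *Xaf1*, which were separate from each other, *Ifi35* was separate from its neighbours, each pair of neighbours from *Ifi44* to *Mx2* overlapped, and so did *Isg20* and *Mx1*. The 3 most abundant genes made up 84.5% to 92.2% of the summed level in every library. That sum was 229, 250 and 280 TPM in the OSKA − 4OHT wells and 790, 885 and 681 TPM in the OSKA + 4OHT wells.

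Wells differed within the groups as well. The second OSKA + 4OHT well was the highest treated well for 7 of the 10 genes, the first for 2 and the third for 1. Without 4OHT the first well, the shallowest library, was the lowest for 8 of the 10 genes. Leaving out the second OSKA + 4OHT well left 2 of the 10 genes called, and leaving out the first left 4. Each of these fits has 2 wells against 3 and fewer calls over all genes too, with 123 and 111 called higher in place of 441.

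The promoter table from RefSeq (GRCm38.p6), which covers 250 bases before to 50 bases after a start site, had an entry for 7 of the 10 genes. The core of the ISRE was searched on both strands as GAAANNGAAA. It was found in 2 of the 7 genes, *Bst2* and *Rsad2*, and in 3.99% of the 27025 genes of the table (3.44% of its 32851 promoters), a gene being counted where any of its promoters had a match. The 250 bases before the start site of these 2 genes and of *Ifi35*, a called gene with no match, are printed 5′ to 3′ on the strand of the gene, with each match in capitals. They lie at chr8:71537473-71537722 (minus strand), chr12:26456453-26456702 (minus strand) and chr11:101448162-101448411 (plus strand).
Bst2: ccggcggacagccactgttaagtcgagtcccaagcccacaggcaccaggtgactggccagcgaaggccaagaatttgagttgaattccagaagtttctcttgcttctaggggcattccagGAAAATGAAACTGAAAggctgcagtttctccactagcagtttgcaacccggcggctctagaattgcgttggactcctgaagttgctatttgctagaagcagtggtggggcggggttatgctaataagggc
Rsad2: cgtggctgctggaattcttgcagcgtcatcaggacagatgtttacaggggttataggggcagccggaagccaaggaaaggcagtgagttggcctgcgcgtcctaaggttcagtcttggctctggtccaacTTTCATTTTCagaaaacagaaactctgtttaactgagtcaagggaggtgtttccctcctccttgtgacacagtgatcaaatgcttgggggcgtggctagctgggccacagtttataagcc
Ifi35: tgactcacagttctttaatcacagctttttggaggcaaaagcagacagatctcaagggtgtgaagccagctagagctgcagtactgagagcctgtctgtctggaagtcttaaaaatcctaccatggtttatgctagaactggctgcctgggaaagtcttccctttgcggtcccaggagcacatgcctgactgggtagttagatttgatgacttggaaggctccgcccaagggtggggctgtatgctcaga

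In *Bst2* there were 2 matches, which overlap and begin 130 and 124 bases before the start site. In *Rsad2* there was 1 match, on the opposite strand and 120 bases before the start site. The same search found the core in 17 of 31 other interferon-induced effector genes with an entry (54.8%). The shorter GAAANNGAA, which contains every match of the core, was in 3 of the 7 genes and in 9.76% of all genes of the table. The core of the gamma-activated site that STAT dimers bind, TTCNNNGAA, was in *Bst2*, *Ifi35* and *Isg20* and in 9.55% of all genes of the table, and in *Bst2* it began 136 bases before the start site and overlapped the first ISRE match. The motifs were chosen after the values had been seen, and a match is a run of letters, not a measured binding site.

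The other genes of the pathway were described from lists, which are not independent of earlier results of these data. The 10 interferon genes on the list, with *Ifnb1*, 4 *Ifna* genes, *Ifne*, *Ifnk*, *Ifnl2*, *Ifnl3* and *Ifng*, were listed at 0 in all 6 libraries. Of the 54331 genes listed, 24191 were above 0 in at least 1 library, and the rest were at 0 throughout. A 0 in a library may also be a failed estimate, since 97 of the 5708 genes whose median passed 20 TPM had a 0 in at least 1 library.

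Of 13 receptors, JAK kinases, STAT and IRF factors, 1 rose and 0 fell, against 2.87% and 1.37% of all tested genes. The median log2 fold change was 0.02. At an unadjusted p-value under 0.05 in limma, 5 were higher and 1 lower (14.1% and 7.18% of all tested genes). The gene that rose was *Stat2*, from 13.2, 10.3 and 21.9 TPM to 44.6, 68.8 and 62.9 TPM, a log2 fold change of 1.97 (SE 0.319, adjusted p = 0.0239). That call held without the third OSKA − 4OHT well (adjusted p = 0.0249) and was lost without any one of the other 5 wells (adjusted p of 0.0651 to 0.0963). *Irf7*, which encodes a factor that drives interferon genes, had the highest estimate, 2.47, with wells at 7.90, 30.5 and 5.37 TPM without 4OHT and 58.5, 101 and 43.0 TPM with it, but it was not called (SE 0.657, adjusted p = 0.0888). *Jak2* had the lowest estimate, −0.66, with an adjusted p of 0.0624. *Ifnar1*, which encodes a receptor chain for type I interferon, was at 22.8 to 26 TPM without 4OHT and 21.8 to 24.1 TPM with it.

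Of the 10 nucleic acid sensors and adaptors, 4 rose and 0 fell, against 2.87% and 1.37% of all tested genes. The median was 0.91. At an unadjusted p under 0.05 in limma 5 were higher and 0 lower (14.1% and 7.18% of all tested genes). The genes that rose were the RNA sensors *Ddx58*, *Ifih1* and *Dhx58*, and *Zbp1*, which senses Z-form nucleic acids. *Zbp1* had the largest rise, from 23.2, 25.6 and 28.2 TPM to 119, 149 and 155 TPM (log2 fold change 2.43, adjusted p = 0.00342). With any 1 well left out *Zbp1* was still called, whereas *Ddx58* held only without the first OSKA + 4OHT well (adjusted p = 0.0375), *Ifih1* only without the third OSKA − 4OHT well (adjusted p = 0.0333) and *Dhx58* in no such fit (adjusted p of 0.0707 to 0.135). The lowest estimate was that of the kinase gene *Ikbke*, −0.36, with groups that overlap.

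Among the 8 negative regulators, 2 rose and 0 fell, against 2.87% and 1.37% of all tested genes. The median was 1.26. At an unadjusted p under 0.05 in limma 4 were higher and 0 lower (14.1% and 7.18% of all tested genes). *Usp18*, which encodes the protease that removes ISG15 from proteins and blocks the interferon receptor, rose from 6.77, 2.78 and 8.72 TPM to 39.8, 67.6 and 41.1 TPM (log2 fold change 3.01, adjusted p = 0.0168). The other was *Ptpn6*, a phosphatase gene, with a log2 fold change of 1.66 (adjusted p = 0.0308). The *Usp18* call was lost without any one of the OSKA + 4OHT wells (adjusted p = 0.068, 0.0719 and 0.057), and that of *Ptpn6* without any one of the 6 wells (adjusted p of 0.0747 to 0.114). *Pias1* had the lowest estimate, −0.65, with groups that overlap.

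Of the 36 other interferon-induced effectors, 19 rose (52.8%) and 0 fell, against 2.87% and 1.37% of all tested genes. The count was 11 without the first OSKA + 4OHT well and 9 without the second. The median was 1.70, and 35 had an estimate above 0. In 31 every treated well lay above every untreated one, as in 18.1% of all tested genes. At an unadjusted p under 0.05 in limma 32 were higher and 0 lower, against 14.1% and 7.18%. *Isg15*, which encodes a ubiquitin-like modifier, had the largest rise, from 18.9, 33.9 and 18.1 TPM to 288, 394 and 272 TPM (log2 fold change 3.76, adjusted p = 0.00366). *Trim25*, which encodes a ubiquitin ligase, had the only estimate below 0, −0.29, and was not called. Its wells were at 32.7 to 40.2 TPM without 4OHT and 27.9 to 32.7 TPM with it.

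A further list held relatives and partners of the 10 genes. Of 15 listed, 12 were tested, 1 rose and 0 fell, against 2.87% and 1.37% of all tested genes. The median was 0.21. At an unadjusted p under 0.05 in limma 3 were higher and 0 lower (14.1% and 7.18% of all tested genes). The gene that rose was *Ifi27l2a*, a relative of *Ifi27*. It was at 15.4, 15.7 and 15.4 TPM without 4OHT and at 115, 188 and 103 TPM with it (log2 fold change 3.03, SE 0.246, adjusted p = 0.00369), and it lies 1927 bases from *Ifi27*. *Xiap* had the lowest estimate of this list, −0.27. The dynamin gene *Dnm2*, related in sequence to the Mx genes, was at 48.6 to 61.2 TPM without 4OHT and 53.5 to 58.0 TPM with it. *Cmpk1*, the cytosolic counterpart of *Cmpk2*, was at 76.6 to 107 TPM without 4OHT and 89.7 to 92.8 TPM with it. For *Dnm2* and *Cmpk1* the 95% intervals of the log2 fold change were −0.38 to 0.34 and −0.39 to 0.37.

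**Figure D3:**
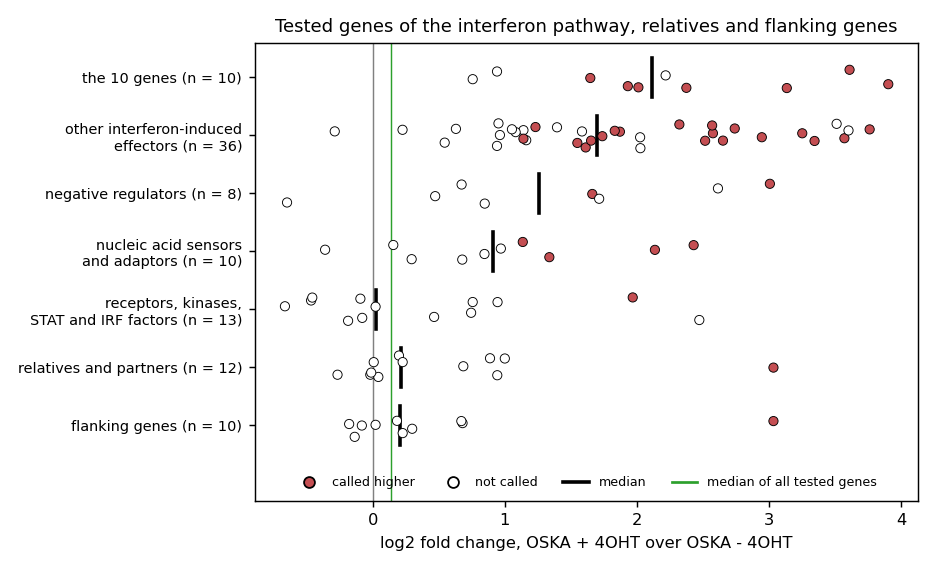
Log2 fold change (OSKA + 4OHT over OSKA − 4OHT) of every tested gene of the 10, of the lists of pathway genes and relatives, and of the protein-coding genes that flank the 10. Each circle is a gene, red where it was called higher, with a black bar at the median of the group and the green line at the median of all tested genes (0.14). The bars lie at 2.11 for the 10 genes, 1.70 for the other effectors and 0.21 for the relatives and for the flanking genes; *Ifi27l2a* and *Aen* are in both of the last 2 groups.

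The nearest protein-coding gene on either side of each of the 10 gave 17 flanking genes, of which 10 were tested. Of these, 1 rose, *Ifi27l2a*, and 0 fell, against 2.87% and 1.37% of all tested genes. The median log2 fold change was 0.21, and that of all tested genes was 0.14. *Bace2*, beside the Mx genes, had an estimate of −0.14. *Rnf144a* and *Sox11*, on either side of *Cmpk2* and *Rsad2*, had 0.18 and 0.30, and *Mvb12a* beside *Bst2* had 0.68. Distances to the flanking genes ran from 46 bases (*Vat1* to *Ifi35*) to 877811 bases (*Sox11* to *Rsad2*). *Ddx24*, on the other side of *Ifi27*, had 0.67, with no overlap between groups and an adjusted p of 0.235. *Vat1* and *Rpl27*, on either side of *Ifi35*, had −0.18 and 0.02. *Aen* beside *Isg20* had 0.23 and *Slc13a5* beside *Xaf1* had −0.08. None of these 9 was called. The other 7 flanking genes, among them *Fam3b* and *Tmprss2* beside the Mx genes and *Fbxo39* beside *Xaf1*, were too low to test.

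The mean profile of the 10 genes over the 6 libraries was compared with every other tested gene outside the lists. The 5 most alike were *Neu1* (Pearson r = 0.9994), *Cryba2*, *Polr2g*, *Tcf19* and *Slc9a3r1* (r of at least 0.995). As these 5 were picked for a profile that mostly follows the group difference, their p-values are no independent test of it. Among them 2 were called higher (2.87% of all tested genes). *Cryba2* rose from 0, 1.03 and 1.49 TPM to 28.2, 44.8 and 23.1 TPM (adjusted p = 0.0102 in limma), a call lost without the first or the second OSKA + 4OHT well (adjusted p = 0.0562 and 0.0564). *Slc9a3r1* rose from 22.2, 23.9 and 27.2 TPM to 53.2, 63.1 and 49.4 TPM (adjusted p = 0.0173), a call kept only without the third well of either group (adjusted p = 0.0415 and 0.0434). The other 3 were not called, and *Polr2g* was at 67.9 to 74.5 TPM without 4OHT and 100 to 104 TPM with it. A correlation over 6 libraries in 2 groups mostly reflects the group difference, and 439 of 15382 tested genes (2.85%) had an r above 0.95. The r of each of the 10 genes with the mean that includes it ran from 0.804 for *Isg20* to 0.997 for *Bst2*.

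Markers of other cell types were summed in each library. The 11 macrophage markers added up to 132 to 163 TPM without 4OHT and 91 to 103 TPM with it. Of 11 tested, 0 were called higher and 0 lower by limma (2.87% and 1.37% of all tested genes). At an unadjusted p under 0.05 in limma 0 were higher and 1 lower (14.1% and 7.18% of all tested genes). The gene lower was *Lyz2*, at 90.1 to 101 TPM without 4OHT and 46.5 to 60.7 TPM with it. Its log2 fold change of −0.88 (adjusted p = 0.0299 in limma) missed only the fold threshold. The other 10 markers added up to 41.8 to 68.2 TPM without 4OHT and 39.2 to 54.7 TPM with it, sums that overlap. Of 5 markers of lymphoid cells and of plasmacytoid dendritic cells, which make much interferon, 4 were listed at 0 in all libraries (*Cd3e*, *Nkg7*, *Siglech* and *Flt3*) and the sum did not exceed 0.577 TPM. The 5 endothelial markers added up to 21.4 to 28.9 TPM without 4OHT and 28.1 to 37.6 TPM with it, which overlap. Of 2 tested, 0 were called higher and 0 lower (2.87% and 1.37% of all tested genes). At an unadjusted p under 0.05 in limma 1 was higher and 0 lower (14.1% and 7.18% of all tested genes). The 6 epithelial markers added up to 32.7, 41.1 and 87.4 TPM without 4OHT and to 158, 162 and 153 TPM with it. Here 3 of 6 rose and 0 fell (2.87% and 1.37% of all tested genes). At an unadjusted p under 0.05 in limma 3 were higher and 0 lower (14.1% and 7.18% of all tested genes). The 7 pluripotency markers added up to 12.9 to 15.3 TPM without 4OHT and 52.7 to 66.1 TPM with it. Here 4 of 7 rose and 0 fell (2.87% and 1.37% of all tested genes). At an unadjusted p under 0.05 in limma 5 were higher and 0 lower (14.1% and 7.18% of all tested genes). The part of these cell states in the levels of the effector genes was not tested.

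**Figure D4:**
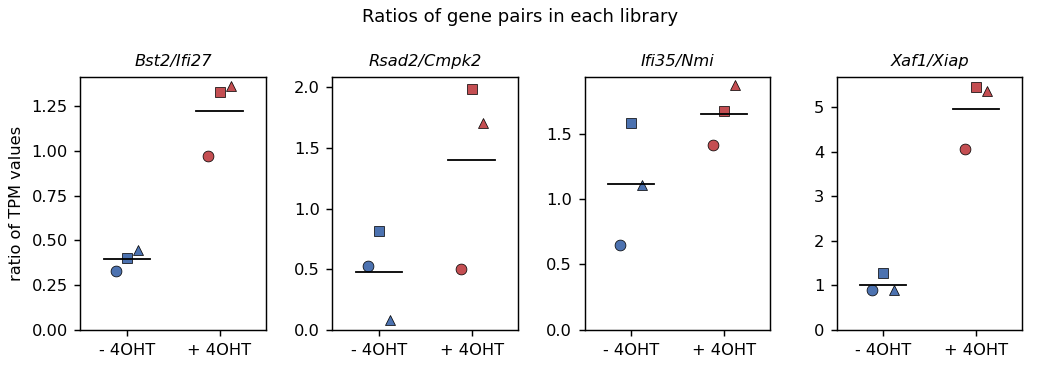
Ratio of TPM values of 4 pairs of genes within each library, on axes that start at 0. Blue symbols are OSKA − 4OHT wells and red symbols OSKA + 4OHT wells, the shape gives the replicate and the line the mean of 3. *Bst2* to *Ifi27* and *Xaf1* to *Xiap* show no overlap between groups, whereas *Rsad2* to *Cmpk2* and *Ifi35* to *Nmi* overlap.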

How the data were processed

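The authors trimmed the 50-base single-end reads of stranded poly(A) libraries with Trim Galore, quantified them with Salmon and deposited TPM values per gene and well, each library adding up to 1000000. Versions and the annotation release are not given in the sources used here. The 4 columns of the authors' own comparison (log2 fold change, log2 average level, F statistic and p-value) were not used. Symbols and positions came from GENCODE M21 (GRCm38), matched by Ensembl identifier.

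All 6 libraries were fitted with limma-trend (limma 3.58.1, R 4.3.3) on log2(TPM + 0.5), over the 15382 genes that averaged 1 TPM or more, with Benjamini-Hochberg adjustment and no block. Calls needed an adjusted p below 0.05 and a change of more than 1 on the log2 scale. This scale understates the folds of low genes. On simulated data with 200 changed genes among 15382, 30.5%, 61.5% and 73% were recovered at a log2 fold change of 1.5, 2.5 and 3.5, with 2 to 5 false calls. The simulated log2 values had normal noise, independent between genes and wells, and no sampling of reads. These figures may therefore not hold for genes with few reads. Relative depth was estimated from the TPM steps of 17139 genes (assumed fragment length 250 bases, error up to 4.89% on simulated data), and reads per gene are approximate. Shared stretches were exact 50-base matches between GENCODE transcripts.

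The genes and lists were chosen with earlier results of these data known. The named genes are the 10 genes, the largest rise and lowest estimate of each list, other called list genes where few, the flanking genes and the 5 genes most alike in profile. *Stat2*, *Ifnar1*, *Ddx58*, *Ifih1*, *Dhx58*, *Ptpn6*, *Nmi*, *Dnm2*, *Cmpk1* and *Ifi44l* were named after their values were seen. Of the 15 relatives, 14 symbols were matched. In the lists, 2 genes are not reported here and were left out of the counts. Other pseudocounts, filters, scalings, variance models, a replicate block and leaving out each well were tried.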

Additional observations from a re-analysis of the deposited data

How the results depend on the processing

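The number of the 10 genes called higher was 7, and it ran from 2 (without the second OSKA + 4OHT well) to 6 when 1 well was left out. With the replicate block it was 1 of 10, *Xaf1*, and 31 genes of all were called higher and 16 lower. The replicate numbers hardly pair the wells: the deviations of same-numbered wells correlated at only 0.0235, 0.0341 and 0.0837. The first OSKA + 4OHT well was most like the second OSKA − 4OHT well (0.0327). Every other well was most like its own number. Leaving out 1 well gave 111 to 303 genes called higher over all genes and 63 to 127 lower. Of the lists, receptors and factors had 0 genes called higher with the replicate block and 0 to 2 without a well, sensors 1 with the block, 2 without the intensity trend and 1 to 2 without a well, and negative regulators 0 with the block, 0 to 1 without a well, and 1 with no filter, with a mean of at least 5 TPM or with quantile normalization. The other effectors had 4 with the block and 9 to 17 without a well, the fewest without the second OSKA + 4OHT well. The fits that leave out a well have fewer samples, and the cause of these changes was not tested. No direction reversed among the 10 genes. Trimmed mean of log ratios scaling moved the median of all genes from 0.14 to 0.04 and the share of calls that were higher from 67.7% to 56.5%, and quantile normalization gave 53.1%. *Mx1* and *Isg20* were too low for the filter of 5 TPM. Depth limits the low genes: *Mx1*, *Mx2*, *Rsad2*, *Cmpk2* and *Isg20* each had under about 3 reads in at least 1 untreated well. Count models were not run, since the deposited values are TPM.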
